A study of Mus musculus with 75 samples.

Results

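Cannabinoid, opioid and tachykinin receptors are the main targets through which cannabis compounds, opioid drugs and the gut's own peptides act on bowel movement. The genes described here encode 7 of them, namely the cannabinoid receptor Cnr1, the opioid receptors Oprm1, Oprd1 and Oprk1, and the tachykinin receptors Tacr1, Tacr2 and Tacr3. They are 7 of the 21051 gene symbols present in both deposited count tables, and they were chosen by symbol with earlier results of these data in view. For that reason every contrast of these genes among untreated groups is given below as a description without a test. Which contrast led to the choice is not stated. The contrasts in injected mice were tested, and whether their p-values are free of the choice is not known.

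The 75 libraries were made from cells labelled as enteric glia, taken from adult mice that all carry a green fluorescent reporter transgene. How the cells were isolated and the background strain are not given in the sources used here. Untreated reporter mice gave 6 libraries of each plexus of the small intestine and 5 of each plexus of the colon. In the second experiment reporter mice were killed 2 h after a single peritoneal injection of PBS or of lipopolysaccharide (LPS, a bacterial endotoxin, 2 mg/kg), and the myenteric plexus gave 4 libraries per region and treatment. The third compared wild-type mice (Gpr37WT) with mice lacking the orphan receptor Gpr37 (Gpr37-/-), 24 h after PBS or LPS, again in the myenteric plexus. Wild-type small intestine was sampled in 6 mice after PBS and 4 after LPS, and wild-type colon in 4 and 5. For the knockout these numbers were 4 and 5 in the small intestine and 5 and 4 in the colon. At 24 h some mice gave a library of each region.

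The myenteric plexus lies between the muscle layers of the gut wall and drives its movement, while the submucosal plexus lies under the mucosa and regulates secretion. The cannabinoid receptor CB1, encoded by Cnr1, and the mu, delta and kappa opioid receptors, encoded by Oprm1, Oprd1 and Oprk1, couple to Gi/o proteins, and on enteric neurons they lower transmitter release, which slows transit. The tachykinin receptors NK1, NK2 and NK3, encoded by Tacr1, Tacr2 and Tacr3, couple to Gq and are excited by substance P and neurokinin A, which come from Tac1, and by neurokinin B from Tac2. In the gut wall NK2 is best known on smooth muscle, NK3 on enteric neurons, and NK1 on neurons and interstitial cells of Cajal.

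Library totals spanned 2547296 to 9002546 counts in untreated mice, 1990744 to 7883251 at 2 h and 2882539 to 33283346 at 24 h. The glial label was checked against 8 glial markers, and all 8 were detected in every group. Their summed level was 6301 to 14000 CPM (counts scaled to library size) in the untreated myenteric libraries and 543 to 5641 CPM in the untreated submucosal ones. The submucosal libraries of the small intestine held 2376 to 13560 CPM of 7 immune markers and 940 to 3995 CPM of 5 epithelial markers, against 143 to 2086 and 4.90 to 150 CPM in the myenteric libraries of that region. Neuronal RNA was present in all 75 libraries, where 12 neuronal markers summed to 47.0 to 6759 CPM, with Chat at 0 in the PBS colon at 2 h. Gpr37 was at 3 or fewer counts in 17 of 18 knockout libraries and in 4 of 19 wild-type libraries at 24 h.

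Cnr1 was at its highest in small-intestinal myenteric tissue and near 0 elsewhere in the untreated gut. In the 6 untreated myenteric libraries of the small intestine it ran from 21.8 to 119 CPM, with a median of 84.9 CPM. The 5 myenteric libraries of the colon gave 0.175, 0.652, 0.982, 0.986 and 2.42 CPM. The lowest small-intestinal library thus stood above the highest colonic one, and the group means were 75.1 ± 42.1 (SD, n = 6) and 1.04 ± 0.837 CPM (n = 5), a ratio of 72.0. The submucosal libraries of the small intestine ran from 0.378 to 2.80 CPM, with a median of 1.30 CPM, and did not overlap with the myenteric ones. In the submucosal plexus of the colon 4 of 5 libraries were at 0 and the other at 2.03 CPM. In bulk samples such as these, fewer cells of a type and less RNA per cell cannot be told apart.

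Cnr1 occupies chromosome 4 from 33924593 to 33948831 on the plus strand (GRCm38). The 250 bases just before the most upstream of its 3 start sites in the RefSeq promoter table (GRCm38.p6, chr4:33924014-33924263, plus strand) are shown beside those of Tacr3 (chr3:134828757-134829006, plus strand), because these were the receptor genes with the highest untreated levels. CpG dinucleotides are in capitals.

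Cnr1: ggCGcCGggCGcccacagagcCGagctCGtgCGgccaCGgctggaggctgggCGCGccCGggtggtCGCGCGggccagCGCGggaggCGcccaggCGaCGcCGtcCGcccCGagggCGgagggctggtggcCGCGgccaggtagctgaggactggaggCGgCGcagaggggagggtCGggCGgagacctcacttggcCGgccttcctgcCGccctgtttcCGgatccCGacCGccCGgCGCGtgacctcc

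Tacr3: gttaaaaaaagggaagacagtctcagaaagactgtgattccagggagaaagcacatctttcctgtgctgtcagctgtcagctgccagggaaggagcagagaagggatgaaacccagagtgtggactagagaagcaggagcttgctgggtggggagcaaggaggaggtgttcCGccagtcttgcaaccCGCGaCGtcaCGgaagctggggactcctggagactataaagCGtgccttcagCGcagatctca

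The Cnr1 window held 36 CpG dinucleotides and was 79.2% G and C. Of the 32851 windows of this length in the table, 2.58% held at least as many, and the median window held 6. The Tacr3 window held 7 CpG, and 46.3% of windows held at least as many. The motif TATAAA, read on both strands, occurred in the Tacr3 window and in 12.4% of all windows, and GGGCGG occurred in the Cnr1 window and in 32.7% of all. Oprd1 had 34 CpG, Tacr1 7, Tacr2 4 and Oprm1 0. These matches describe the sequence and no binding was measured.

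Of the opioid receptors, Oprk1 carried most of the counts. Untreated myenteric libraries of the small intestine held 7.35 to 69.7 CPM of it, with a median of 23.1 CPM. In the colon the same plexus gave 0 in 3 libraries, then 1.53 and 4.53 CPM, and the groups did not overlap. Submucosal libraries held none in either region, except for 1 small-intestinal library at 2.52 CPM. Oprk1 thus shared its place with Cnr1, at a mean of 29.3 ± 24.2 CPM (SD, n = 6) in the group where both were highest.

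Oprd1 and Oprm1 stood near the counting floor. Here the floor is the CPM value of 3 counts in a library, on average 0.599 CPM in the untreated myenteric libraries of the small intestine and 0.581 CPM in those of the colon. Oprd1 reached 3.92 and 4.01 CPM in a pair of the 6 small-intestinal myenteric libraries, was at 0.564 CPM in another and at 0 in 3. It was at 0 in 15 of the other 16 untreated libraries. Oprm1 ranged from 0 to 5.60 CPM in the small-intestinal myenteric libraries, with a median of 0.809 CPM, and from 0 to 1.74 CPM in the colonic ones. The counting did not state its use of strand, and exons of Oprm1 are overlapped by Ipcef1 on the opposite strand, so reads of these genes cannot be told apart and the Oprm1 values are uncertain.

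The tachykinin receptors differed among themselves in where they were found. Tacr3 ran from 28.5 to 115 CPM in the untreated myenteric libraries of the small intestine, with a median of 52.4 CPM. Colonic myenteric libraries gave 0, 0.907, 9.35, 25.2 and 32.3 CPM, so the regions overlapped. In the submucosal plexus Tacr3 was at 0 in all 6 small-intestinal libraries and in 4 of 5 colonic ones, the other holding 1.52 CPM. Set against the floor of 3 counts per library, its mean in the small-intestinal myenteric plexus was at least 97.9-fold higher than in the submucosal plexus. The neuronal sum was 867 to 2878 CPM in the myenteric and 61.7 to 195 CPM in the submucosal libraries of that region, and 11 of the 12 neuronal genes fell (median log2 fold change -4.07). Its part in the values of Tacr3, Cnr1 and Oprk1 was not tested.

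Tacr2 showed the opposite regional pattern to Cnr1. Untreated colonic myenteric libraries gave 1.09, 4.55, 6.87, 12.8 and 13.9 CPM. In the small intestine 5 of 6 myenteric libraries were at 0 and the other at 0.890 CPM, below the lowest colonic library. All 6 submucosal libraries of the small intestine were at 0 as well, while those of the colon gave 0, 0.127, 0.868, 1.11 and 1.25 CPM.

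Tacr1 had 3 colonic myenteric libraries at 6.46, 7.56 and 8.48 CPM and the other two at 0. Its small-intestinal myenteric libraries ran from 0 to 4.90 CPM with a median of 0.732 CPM, overlapping with the colon. It was at 0 in all 5 submucosal libraries of the colon and in 4 of 6 of the small intestine. Both Tacr2 and Tacr1 were higher in the colon by group mean, as were markers of smooth muscle, of interstitial cells of Cajal (94.9 to 199 CPM in the small intestine and 291 to 1002 CPM in the colon) and of fibroblasts (855 to 1575 and 1617 to 8955 CPM). The 6 smooth-muscle genes summed to 7099 to 22790 CPM in the colonic myenteric libraries and 1190 to 8337 CPM in the small-intestinal ones. The 12 neuronal genes summed to 168 to 434 CPM and 867 to 2878 CPM, respectively. The part of these in the receptor levels was not tested.

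**Figure D1:**
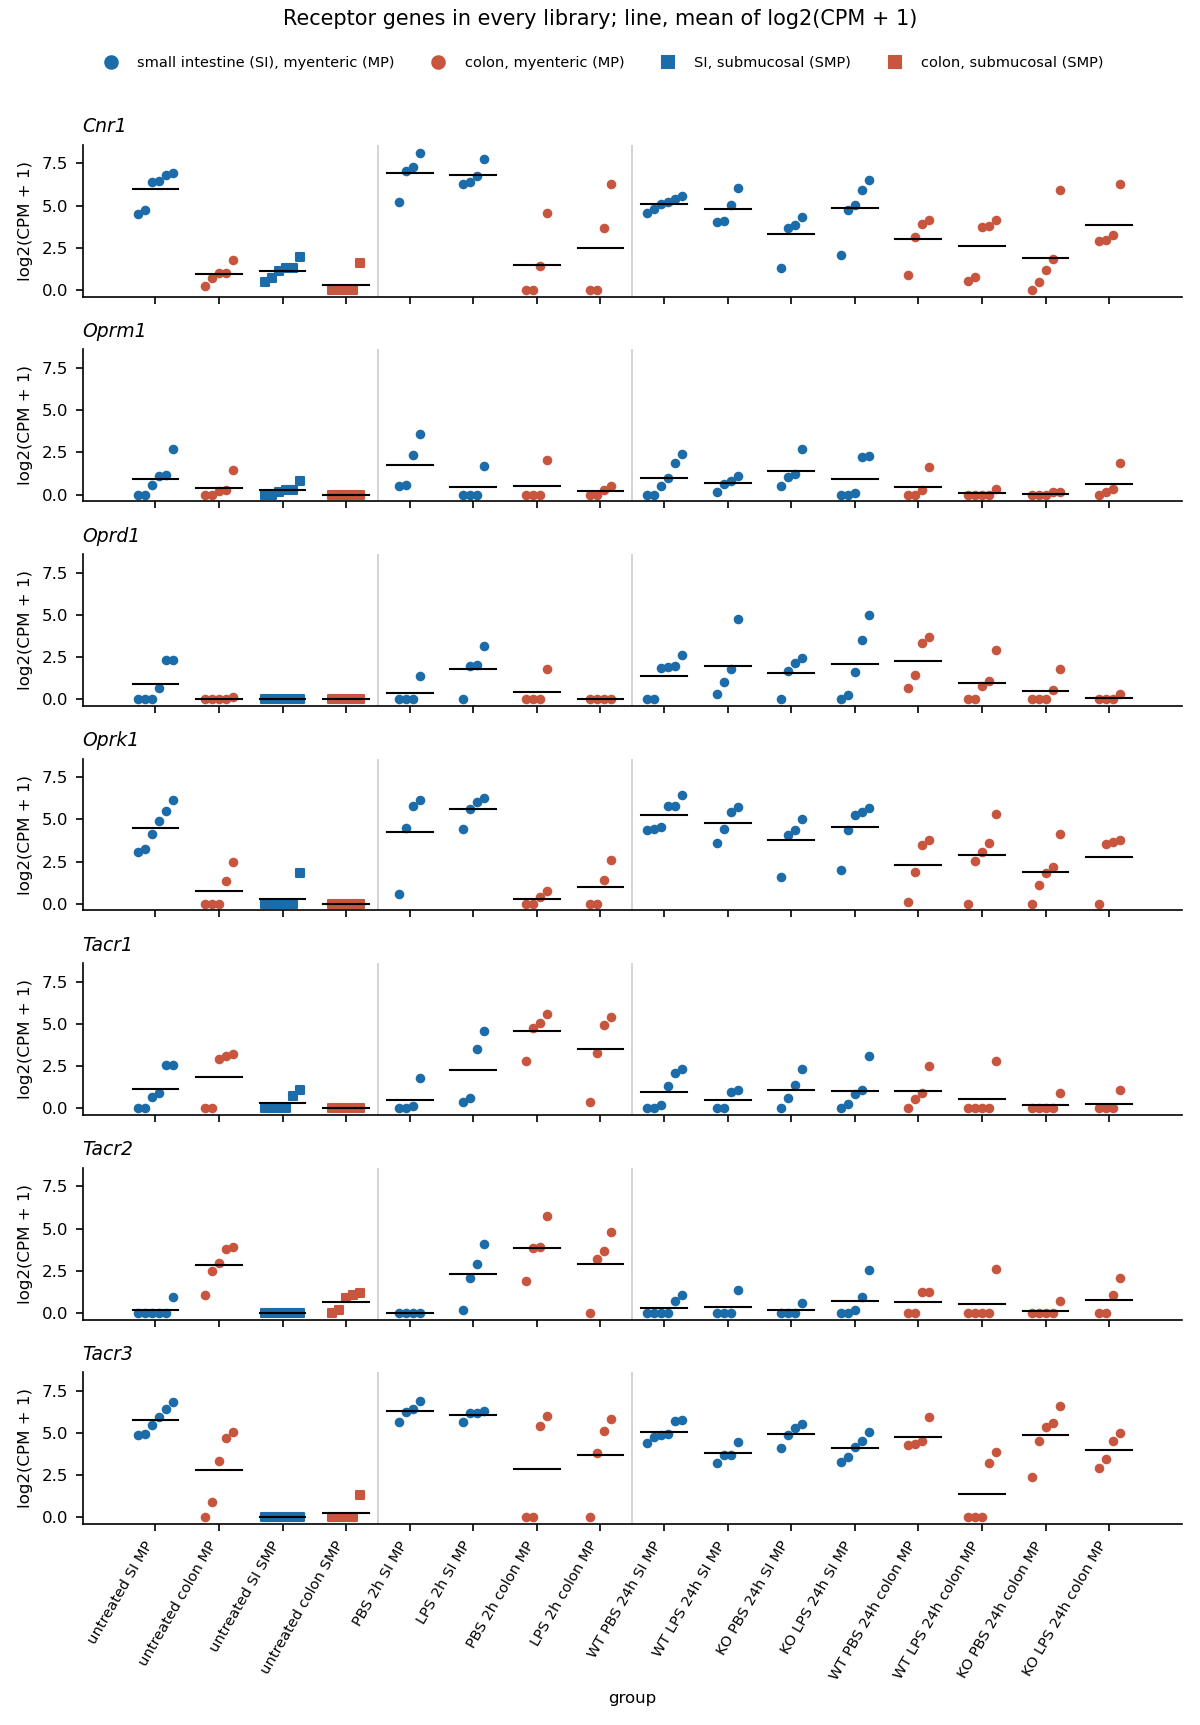
Level of each receptor gene in every library, as log2(CPM + 1), by group on the horizontal axis, with blue for the small intestine, red for the colon, circles for the myenteric and squares for the submucosal plexus, and a line at the group mean of the plotted values. Cnr1 and Oprk1 of untreated mice are high in the first group alone (Cnr1 21.8 to 119 CPM), whereas Tacr2 of untreated mice is high in the second (1.09 to 13.9 CPM).

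Fitted fold changes for these chosen contrasts are given as a description. Between colon and small intestine of the untreated myenteric plexus, the log2 fold change was -6.21 ± 0.90 (SE) for Cnr1, -4.65 ± 1.38 for Oprk1, -2.15 ± 0.99 for Tacr3 and 1.25 ± 1.42 for Tacr1. Of all genes that passed the filter on low counts, 449 (3.19%) were called. For submucosal against myenteric small intestine the log2 fold change was -5.81 ± 0.81 for Cnr1, -2.72 ± 1.52 for Tacr1 and -6.53 ± 1.46 for Oprk1. There 43.5% of all genes were called. Without submucosal replicate 3, the 1 such library with Oprk1, the value of Oprk1 was -10.38 ± 1.83. Oprm1, Oprd1 and Tacr2 did not pass the filter in the untreated experiment. Oprk1 and Tacr3 passed it through the myenteric libraries. In the interaction of region and plexus 1.19% of all genes were called by edgeR. No call or p-value of a member is given for these contrasts, since the members were chosen with these data in view.

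Compared per kilobase of exon, the order of the levels differed between regions. In the untreated myenteric plexus of the small intestine Tacr3 led at a mean of 16.2 CPM per kb, followed by Cnr1 at 11.7 and Oprk1 at 3.20. Tacr3 and Cnr1 did not differ beyond their spread, at 60.8 ± 34.3 and 75.1 ± 42.1 CPM before division by length. Oprd1, Tacr1, Oprm1 and Tacr2 followed at 0.352, 0.288, 0.175 and 0.0657 CPM per kb. In the colon Tacr3 at 3.60 and Tacr2 at 3.48 CPM per kb led with overlapping libraries, then came Tacr1 at 0.693, while Cnr1 at 0.162 and Oprk1 at 0.133 had fallen behind them.

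The plexuses of the untreated colon are described in the same way. Tacr1 and Tacr3 had lower means in the submucosal plexus than in the myenteric plexus. Tacr1, at 4.5 ± 4.17 CPM (SD, n = 5) in the myenteric plexus, was at 0 in all 5 submucosal libraries and so at least 7.43-fold lower there. The groups still touched, because 2 myenteric libraries were at 0 too. Tacr3 had a mean of 0.304 CPM against 13.6 CPM, a fitted log2 fold change of -5.42 ± 1.32 (SE), or -9.24 ± 1.94 without submucosal replicate 2. Of all genes 21.8% were called in this contrast. Tacr1 and Tacr3 passed the filter on low counts through the myenteric libraries.

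For the other pair in the colon, Oprk1 was at 0 in all 5 submucosal libraries and averaged 1.21 CPM in the myenteric plexus. Myenteric libraries at 1.53 and 4.53 CPM carried that mean, and the others were at 0. Set against the floor the mean was at least 2.00-fold higher, but the groups overlapped. Cnr1 gave a log2 fold change of -0.98 ± 0.92, which rested on 1 submucosal library at 2.03 CPM. Without that library, replicate 6, it was -5.45 ± 1.30. When only the colonic libraries entered the fit, none of the 4 members passed the filter on low counts.

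Glial, neuronal and smooth-muscle markers were also lower in the submucosal libraries of the colon. Of the 12 neuronal genes 8 fell and none rose, with a median log2 fold change of -2.14 where the median of all genes was -0.01. Among the 8 glial genes 4 fell (median -1.68), and all 6 smooth-muscle genes fell (median -4.00). The summed neuronal level was 47.0 to 110 CPM in the submucosal colon and 168 to 434 CPM in the myenteric colon. Immune and epithelial markers were higher there. All 7 immune genes rose (median 4.52), their sum being 169 to 7573 CPM in the submucosal and 121 to 481 CPM in the myenteric colon, and 2 of 5 epithelial genes rose (median 2.99). The 169 CPM came from replicate 2, the submucosal colon library with Tacr3, and the next lowest immune sum was 4632 CPM. Replicate 2 also had the highest glial sum of its group, 5641 CPM. The part of these markers in the receptor values was not tested.

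Between the regions of the submucosal plexus the receptor genes were low throughout. The log2 fold changes of colon against small intestine were -1.39 ± 0.87 for Cnr1, -3.80 ± 2.17 for Oprk1, 3.82 ± 2.19 for Tacr3 and -3.66 ± 2.02 for Tacr1. For Oprk1, Tacr3 and Tacr1 most of the 11 libraries were at 0. The Cnr1 value rested on colon replicate 6, and it was -5.86 ± 1.25 without that library. In this contrast 5.18% of all genes were called by edgeR, and no call of a member is given.

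The regional pattern was then examined in injected mice, whose libraries are separate from the untreated ones. At 2 h after PBS Cnr1 again stood apart, with 35.5, 131, 153 and 280 CPM in the small intestine and 0, 0, 1.70 and 23.1 CPM in the colon. Oprk1 gave 0.488, 21.5, 55.2 and 70.0 CPM in the small intestine and 0, 0, 0.340 and 0.667 CPM in the colon. The regions did not overlap for Cnr1, and for Oprk1 they overlapped through the male library numbered 2 of the small intestine, at 0.488 CPM.

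Tacr2 was at 0 in all 4 small-intestinal libraries after PBS at 2 h, and the colon gave 2.72, 13.1, 14.0 and 51.5 CPM. Tacr1 gave 0, 0, 0.120 and 2.41 CPM in the small intestine and 6.00, 26.1, 31.7 and 47.9 CPM in the colon. Neither gene overlapped between the regions. How many of all genes fail to overlap, in this or any other comparison here, was not counted. Nothing particular to the receptors is therefore read from a lack of overlap. The colonic mean of Tacr2 was at least 26.4-fold that of the small intestine.

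None of these differences passed the edgeR test over all genes, in which 29 of 13107 genes (0.221%) did. The log2 fold changes were -4.55 ± 1.60 for Cnr1 (edgeR adjusted p = 0.242), -7.22 ± 1.60 for Oprk1 (0.0719) and 5.34 ± 1.70 for Tacr1 (0.205), and Tacr2 had an adjusted p of 0.0902 by edgeR. Each of the 4 had an unadjusted p under 0.05. The Cnr1 value was -8.12 ± 1.99 without colon replicate 1, the Tacr1 value 8.36 ± 2.11 without small-intestinal replicate 3, and neither passed (edgeR adjusted p = 0.133 and 0.106). DESeq2 called 3 of them, Oprk1 (adjusted p = 5.3e-05), Tacr2 (4.68e-05) and Tacr1 (0.00805). Oprk1 did not pass the filter on low counts when these groups were fitted alone. Tacr2, at 0 in every small-intestinal library here, passed it there through the colon. Tacr3 gave a log2 fold change of -1.61 ± 1.27 (edgeR adjusted p = 0.852), from 0, 0, 42.0 and 64.5 CPM in the colon and 49.6 to 117 CPM in the small intestine, and -2.52 ± 1.45 without colon replicate 2. Oprd1 was detected in 1 library of each region, at 1.61 and 2.38 CPM. Marker sums differed between these groups too. The neuronal sum was 1435 to 4440 CPM in the small intestine against 159 to 801 CPM in the colon, and the smooth-muscle sum 2337 to 15330 CPM against 19380 to 72120 CPM. Their part in the receptor levels was not tested.

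After LPS at 2 h the regions overlapped for Cnr1, Tacr1 and Tacr2. Cnr1 gave 76.8, 84.6, 107 and 214 CPM in the small intestine and 0, 0, 11.9 and 77.4 CPM in the colon, which overlapped, with a log2 fold change of -2.43 ± 1.44 (edgeR adjusted p = 0.612). Without colon replicate 1 the value was -5.04 ± 1.67 (edgeR adjusted p = 0.253). The neuronal sums were 2005 to 3547 CPM in the small intestine and 296 to 2001 CPM in the colon, and their part was not tested. Oprk1 gave 20.9, 48.0, 63.3 and 76.8 CPM against 0, 0, 1.60 and 4.93 CPM, with no overlap and a log2 fold change of -5.07 ± 1.37 (edgeR adjusted p = 0.168, DESeq2 0.00413). Tacr1 and Tacr2 overlapped between the regions, at log2 fold changes of 1.23 ± 1.41 and 0.88 ± 1.41, which ran from 0.61 to 2.43 and from 0.07 to 1.86 when small-intestinal or colon replicate 2 was left out. No member was called by edgeR, where 0.061% of all genes were, 2 members (Oprk1 and Oprd1) had an unadjusted p under 0.05, and DESeq2 called Oprk1 alone. Tacr3 was at -1.41 ± 1.26, and at -2.13 ± 1.45 without colon replicate 3. Oprd1 gave 0, 2.86, 3.05 and 7.78 CPM in the small intestine and was at 0 in all 4 colonic libraries.

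At 24 h the same direction was seen for Oprk1 in all 4 comparisons of region, at smaller size. In wild-type mice after PBS, the small intestine held 19.5 to 86.7 CPM of Oprk1 with a median of 38.5 CPM, and the colon 0.0702, 2.60, 10.1 and 12.6 CPM, without overlap. Its log2 fold change was -2.77 ± 1.23 (edgeR adjusted p = 0.634). The other 3 comparisons gave -1.33 ± 1.14 after LPS in the wild type, -1.89 ± 1.16 after PBS and -1.81 ± 1.2 after LPS in the knockout, with overlapping libraries. The first was -2.44 ± 1.23 without the colon library of mouse 8 and the second -3.22 ± 1.26 without that of mouse 7. The median log2 fold changes of the 12 neuronal genes in the 4 comparisons were -1.45, -2.10, -1.35 and -1.48 in the same order, with none passing the test, and their part in the Oprk1 values was not tested.

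Cnr1 in wild-type mice at 24 h after PBS ran from 22.6 to 45.6 CPM in the small intestine, with a median of 34.15 CPM. The colon gave 0.868, 7.63, 14.3 and 16.6 CPM, again without overlap, and the log2 fold change was -1.79 ± 1.19 (edgeR adjusted p = 0.935). After LPS the small intestine gave 15.4, 15.9, 32.0 and 64.0 CPM and the colon 0.472, 0.728, 12.1, 12.6 and 16.9 CPM, which overlapped. That log2 fold change was -1.88 ± 1.17 (edgeR adjusted p = 0.469).

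In knockout mice after PBS Cnr1 gave 1.46, 11.9, 13.5 and 18.9 CPM in the small intestine. The colon gave 0, 0.364, 1.30, 2.496 and 60.9 CPM. The fitted difference of 0.16 ± 1.16 (edgeR adjusted p = 1.0) turned on mouse 7, the source of both the lowest small-intestinal and the highest colonic library. It was -3.47 ± 1.13 without the colonic library of that mouse (edgeR adjusted p = 0.401), -0.12 ± 1.25 without its small-intestinal one, and -2.79 ± 1.77 when mouse was kept as a block (edgeR adjusted p = 0.779). After LPS the knockout small intestine gave 3.15, 25.4, 31.2, 59.4 and 91.5 CPM and the colon 6.44, 6.87, 8.71 and 78.0 CPM, a log2 fold change of -0.76 ± 1.17 (edgeR adjusted p = 0.893). Without the colon library of mouse 2, at 78.0 CPM, it was -2.52 ± 1.35 (edgeR adjusted p = 0.529), and with any other library left out it ran from -1.06 to -0.26.

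In each colon group at 24 h in the knockout and at 2 h, 1 library held a Cnr1 level far above the rest, at 23.1, 77.4, 60.9 and 78.0 CPM. In 3 of these 4 groups it was also the library with the highest neuronal-marker sum, at 2001, 1494 and 2333 CPM. In the PBS group at 2 h it was the second highest of 4, at 536 CPM against 801 CPM in the highest. Conversely, the small-intestinal library of mouse 7, with Cnr1 at 1.46 CPM, had the lowest neuronal sum of its group, 373 CPM. Its glial sum of 17320 CPM was the highest of its group. The part of neuronal RNA in these values was not tested.

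At 24 h Tacr1 and Tacr2 were low in both regions. Tacr2 ran from 0 to 1.37 CPM over the wild-type PBS libraries of both regions, and Tacr1 from 0 to 4.67 CPM. Their log2 fold changes between regions were 1.23 ± 1.89 and 0.03 ± 1.77 in that comparison. After LPS in the wild type they were 1.263 ± 2.07 and 1.265 ± 1.94. In the knockout they were 0.23 ± 1.89 and -2.88 ± 1.94 after PBS, and -0.06 ± 2.03 and -2.56 ± 2.04 after LPS. Smooth-muscle markers were also low at 24 h, summing to 853 to 7108 CPM in the wild-type PBS colon against 19380 to 72120 CPM in the PBS colon at 2 h. The part of smooth-muscle RNA in the receptor levels was not tested. Tacr3 had mean levels of 35.1 ± 14.0 CPM (SD, n = 6) in the small intestine and 30.4 ± 20.8 CPM (n = 4) in the colon after PBS in the wild type. Its log2 fold change between regions was -0.21 ± 0.82 in that comparison. After LPS in the wild type it was -1.66 ± 0.88 (edgeR adjusted p = 0.383), from 8.46 to 21.5 CPM in the small intestine and 0 to 13.5 CPM in the colon, which is the comparison that holds the 3 colon libraries at 0. In the knockout it was 0.38 ± 0.86 after PBS and -0.08 ± 0.86 after LPS.

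Over the 4 comparisons of region at 24 h edgeR called no member of 7, while it called 0.141% (wild type, PBS), 0.262% (wild type, LPS), 0.0805% (knockout, PBS) and 0.0738% (knockout, LPS) of all genes. In the same order 1, 0, 1 and 1 members had an unadjusted p under 0.05, namely Oprk1, none, Oprm1 and Oprd1. DESeq2 called 1 member in all, Oprd1 in the knockout after LPS. With mouse kept as a block edgeR called no member, and 6, 19, 2 and 4 genes in place of 21, 39, 12 and 11. There Oprd1 gave 0, 0.183, 2.04, 10.2 and 30.1 CPM in the small intestine and 0, 0, 0 and 0.242 CPM in the colon.

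**Figure D2:**
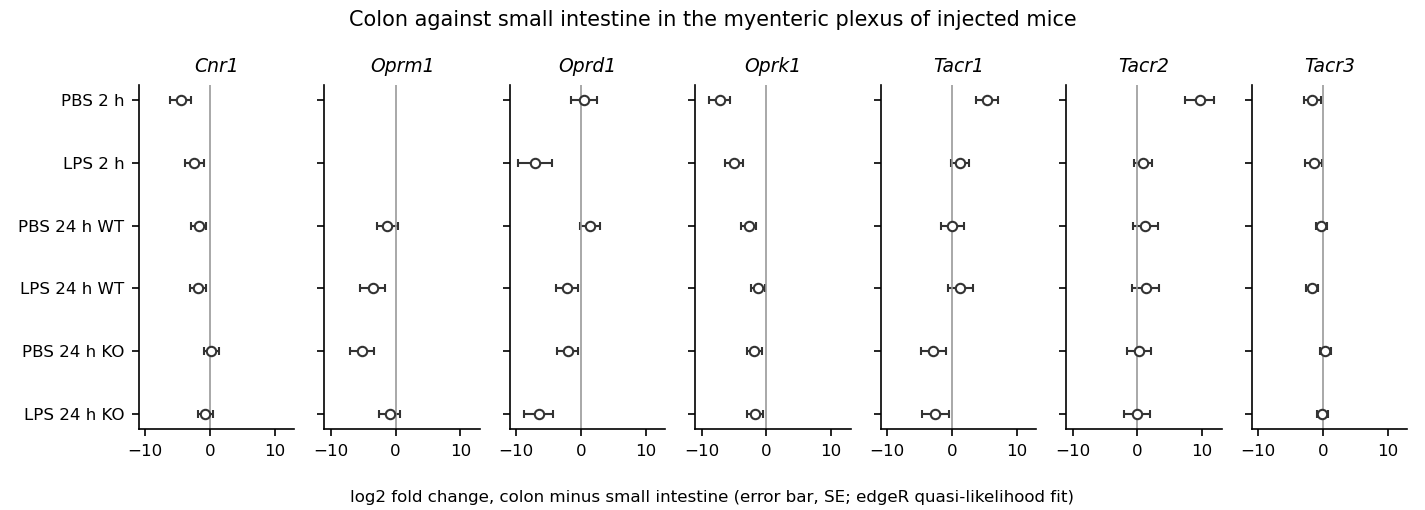
Log2 fold change between colon and small intestine of the myenteric plexus in injected mice, 1 panel per gene and 1 line per treatment, time and genotype (WT, wild type; KO, Gpr37 knockout), with the SE of the edgeR fit as bars and 0 as the vertical line. Oprk1 lies to the left of 0 in all 6 comparisons, from -7.22 to -1.33, and no point passed the adjusted test. Oprm1 was not tested at 2 h.

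**Figure D3:**
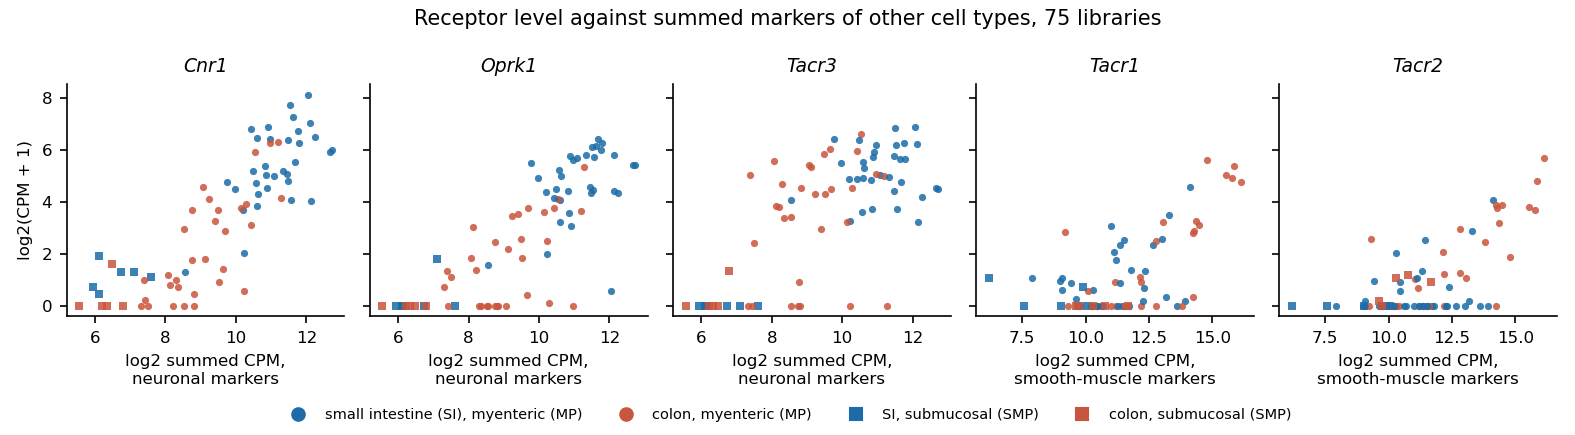
Levels of Cnr1, Oprk1 and Tacr3 against the summed level of 12 neuronal markers, and of Tacr1 and Tacr2 against that of 6 smooth-muscle markers, in 75 libraries, with both axes on a log2 scale and 1 point per library. The library with the highest smooth-muscle sum, 72120 CPM, holds the most Tacr2, 51.5 CPM, and 26.1 CPM of Tacr1. The library with the most Tacr1, 47.9 CPM, has a sum of 28070 CPM. The points share library preparation and depth, and no test was made.

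The effect of LPS was examined in each region at 2 h, an early time of systemic inflammation. No member passed the edgeR test in either region. In the small intestine Tacr2 was at 0 in the 4 PBS libraries and at 0.137, 3.12, 6.36 and 15.9 CPM after LPS. The lowest of these was 1 count, under the floor of 3 counts, so the groups were not fully separated at that floor. The mean after LPS was at least 8.26-fold the PBS level. Its edgeR adjusted p was 0.141, and that of DESeq2 was 0.00191. Neither Tacr2 nor Tacr1 passed the filter on low counts when these groups were fitted alone, without the colon. Tacr1 gave 0.273, 0.520, 10.2 and 22.9 CPM after LPS, overlapping with PBS, with a log2 fold change of 3.62 ± 1.58 (edgeR adjusted p = 0.829).

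Smooth-muscle markers in the small intestine at 2 h summed to 2337 to 15330 CPM after PBS and 1253 to 17920 CPM after LPS. The library with the most Tacr1 and Tacr2 after LPS, male 2, also had the largest of these sums. The PBS library with 15330 CPM, male 4, held no Tacr2 and 0.120 CPM of Tacr1. None of the 6 smooth-muscle genes passed the test, and the part of smooth-muscle RNA in the Tacr1 and Tacr2 values was not tested. Among all genes 1.1% were called here. Of the 6 members tested, 2 (Tacr1 and Tacr2) had an unadjusted p under 0.05, and DESeq2 called Tacr2 alone.

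The other receptors of the small intestine did not pass the test at 2 h. Oprd1 was at 0, 0, 0 and 1.61 CPM after PBS and at 0, 2.86, 3.05 and 7.78 CPM after LPS, a log2 fold change of 2.97 ± 2.10. Cnr1 gave -0.31 ± 1.36, Oprk1 0.50 ± 1.13 and Tacr3 -0.26 ± 1.23 on the log2 scale, the last from 49.6 to 117 CPM after PBS and 49.1 to 77.5 CPM after LPS. In the colon the range over the 6 members was -4.55 for Oprd1 to 2.66 for Oprk1, and 0.778% of all genes were called. There no member was called by edgeR or by DESeq2 and none had an unadjusted p under 0.05. The difference in the LPS effect between the regions was tested as well. Tacr2 and Oprd1 had an unadjusted p under 0.05 in it, with adjusted p = 0.9999 by edgeR, and neither edgeR (0.0% of all genes) nor DESeq2 called a member.

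At 24 h Tacr3 was the single member that passed the test of LPS, in the wild-type colon, and this call was lost in most other settings. The 4 PBS libraries held 18.6, 19.1, 22.4 and 61.5 CPM. After LPS 3 libraries were at 0 and the other two at 8.39 and 13.5 CPM, so that every LPS library lay below every PBS library. Tacr3 fell by 2.82 ± 0.90 (SE) on the log2 scale (edgeR adjusted p = 0.0485). Of the 7 members 1 was called, where 7.96% of all genes were.

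The 3 LPS libraries at 0 came from mice 3, 5 and 8, and all 4 PBS mice were numbered 11 or above, so that for these 3 libraries treatment and low mouse number cannot be told apart. Among mice numbered 11 and above, Tacr3 was lower by 1.47 ± 0.75 on the log2 scale in 2 LPS libraries against 4 PBS libraries, with an adjusted p of 0.236 by edgeR. With the number division as a covariate the log2 fold change was -2.81 ± 0.91 (edgeR adjusted p = 0.0621). Leaving out each library in turn gave values from -3.74 to -2.18, of which 2 of 9 passed, and the adjusted p by edgeR was 0.310 with the compared groups alone, 0.0617 with no filter and 0.0529 with sex as a covariate. With 1 library left out, the fits that passed were those without mouse 13 (edgeR adjusted p = 0.0172) and without mouse 16 (0.0402). The same 3 libraries held 0 to 2 counts of Gpr37, the gene that differs between the genotypes, against 20 and 23 counts in the other LPS libraries and 33 to 110 after PBS. The small-intestinal library of mouse 3 held 0 counts of Gpr37 as well, while that of mouse 8 held 100. Mouse 5 had no small-intestinal library. Whether the wild-type labels of mice 3 and 5 are right was not settled. In the other experiments, without a knockout, Gpr37 was at 3 or fewer counts in 2 of 5 untreated colonic myenteric libraries. At 2 h this held for 2 of 4 colon libraries after PBS and 3 of 4 after LPS. Among small-intestinal myenteric libraries of these experiments it held only for 1 of 4 after LPS. Without the colon library of mouse 3 the log2 fold change of Tacr3 was -2.50 ± 0.88 (edgeR adjusted p = 0.0875). Those of mice 3 and 8 also held 3239 and 4708 CPM of the 5 epithelial markers, where the other 7 libraries held 3.37 to 259 CPM. Neuronal sums were 1203, 430 and 2498 CPM in mice 3, 5 and 8 and 602 to 1378 CPM after PBS. The glial sums of these 3 mice were 1281, 4738 and 2352 CPM and those after PBS 3812 to 6269 CPM. Fibroblast and Cajal-cell markers did not overlap between the groups. The 4 fibroblast genes summed to 281 to 8203 CPM after LPS, with mice 5 and 8 the lowest, and 10130 to 17660 CPM after PBS. The 3 genes of interstitial cells of Cajal summed to 24.5 to 149.9 CPM after LPS and 151.5 to 457 CPM after PBS. In the contrast of LPS with PBS 1 of 4 fibroblast genes and 2 of the 8 glial genes fell and none of the 12 neuronal genes passed the test. The part of these differences in the Tacr3 values was not tested.

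Tacr3 was also lower by fitted value after LPS in the other groups, without passing the test. In the wild-type small intestine, PBS libraries ran from 20.5 to 53.4 CPM with a median of 29.1 CPM, and the LPS libraries were at 8.46, 12.2, 12.2 and 21.5 CPM. The log2 fold change was -1.36 ± 0.86 (edgeR adjusted p = 0.379), and the groups overlapped through 1 library of each. In the knockout small intestine 16.1, 28.4, 39.1 and 45.6 CPM after PBS stood against 8.71, 11.2, 17.3, 22.5 and 32.3 CPM after LPS, at -0.81 ± 0.85 (edgeR adjusted p = 0.820). In the knockout colon 4.30, 22.5, 40.2, 47.0 and 96.7 CPM stood against 6.75, 9.88, 22.0 and 31.1 CPM, at -1.27 ± 0.88 (edgeR adjusted p = 0.591), or -0.69 ± 0.89 without the PBS library of mouse 7.

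**Figure D4:**
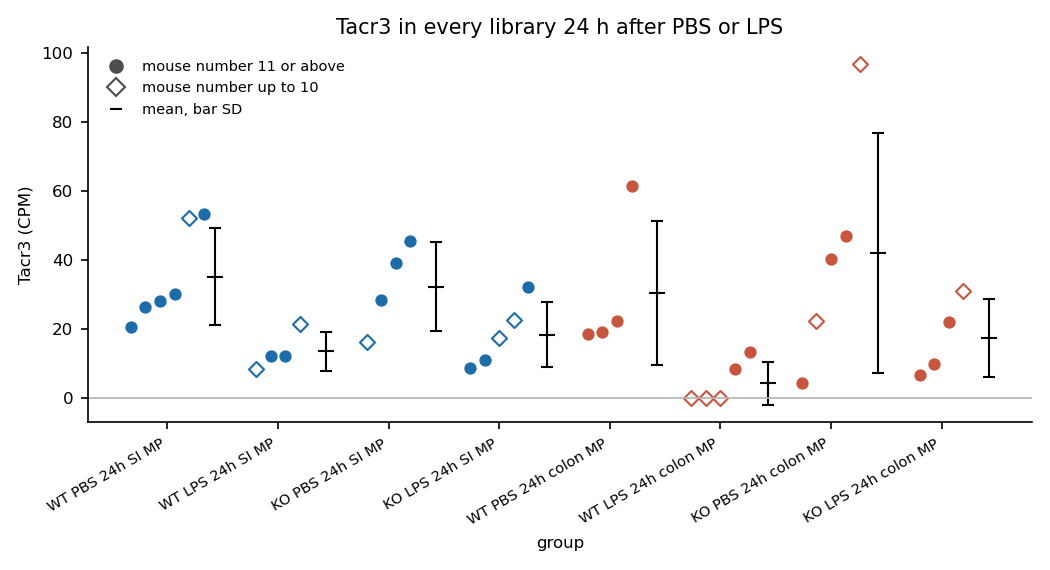
Tacr3 in CPM on a linear axis for every library of the 24 h experiment, by group, with open diamonds for mice numbered up to 10, filled circles for mice numbered 11 or above, and the group mean with its SD to the right of the points. In the wild-type colon the LPS libraries (0 to 13.5 CPM) lie below the PBS libraries (18.6 to 61.5 CPM), and the 3 at 0 are all open diamonds.

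No other member passed the test of LPS at 24 h. In the wild-type small intestine the 7 members ranged from -1.51 (Tacr1) to 1.74 (Oprd1) on the log2 scale with none called by either tool or at an unadjusted p under 0.05, against 7.17% of all genes called by edgeR. Cnr1 gave -0.10 ± 1.11 there and -0.19 ± 1.16 in the wild-type colon. In the knockout 0.718% of all genes were called in each region, and edgeR and DESeq2 called no member, nor did any have an unadjusted p under 0.05. Cnr1 of the knockout gave 1.87 ± 1.22 in the small intestine (edgeR adjusted p = 0.623) and 0.95 ± 1.16 in the colon. Oprm1 of the knockout colon gave 3.67 ± 1.81 from 0 to 0.121 CPM after PBS and 0 to 2.67 CPM after LPS, levels of a few counts.

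Genotype was compared within each treatment and region at 24 h to ask whether loss of Gpr37 moved these receptors. None of the 7 was called by edgeR or DESeq2 in any of the 4 comparisons. Of all genes edgeR called 0.0% after PBS in either region, 0.0134% after LPS in the small intestine and 0.429% after LPS in the colon. In the last of these Tacr3 and Oprd1 had an unadjusted p under 0.05. Tacr3 gave 2.01 ± 0.89 there (edgeR adjusted p = 0.250), with 0 to 13.5 CPM in the wild type and 6.75 to 31.1 CPM in the knockout, overlapping through the 2 highest wild-type libraries. The wild-type libraries include those of mice 3, 5 and 8, with 0 to 2 Gpr37 counts. Between these groups the median log2 fold changes were -4.32 for epithelial, 1.5 for fibroblast and 2.40 for Cajal-cell markers, with none passing the test, and their part was not tested. Oprd1 gave -4.20 ± 2.04 (edgeR adjusted p = 0.298), with wild-type libraries at 0, 0, 0.708, 1.08 and 6.59 CPM and knockout libraries at 0, 0, 0 and 0.242 CPM. The other 3 comparisons had no member at an unadjusted p under 0.05.

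After PBS, knockout against wild type gave Cnr1 a log2 fold change of -1.57 ± 1.17 for small intestine and 0.38 ± 1.17 for colon. The corresponding values of Oprk1 were -1.33 ± 1.14 and -0.45 ± 1.16, and those of Tacr3 were -0.12 ± 0.82 and 0.47 ± 0.86. The receptors at low level had negative values in the colon, at -3.24 ± 1.72 for Oprd1, -3.23 ± 1.78 for Oprm1, -2.85 ± 1.93 for Tacr1 and -2.17 ± 2.03 for Tacr2 (all with an edgeR adjusted p of 1.0). The small-intestinal values of these 4 were 0.19 ± 1.55, 0.60 ± 1.51, 0.06 ± 1.77 and -1.18 ± 2.01. In the small intestine after LPS the 7 members ranged from -0.05 (Oprk1) to 1.83 (Tacr1).

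The interaction of genotype and LPS called no gene in either region by edgeR (0.0% of genes each) and no member by DESeq2. For Tacr3 it was 1.55 ± 1.22 in the colon (edgeR adjusted p = 0.625) and 0.55 ± 1.19 in the small intestine, so the Tacr3 change called in the wild-type colon was not shown to differ from that in the knockout. Oprm1 had the only unadjusted p under 0.05, in the colon, at 6.96 ± 2.62 (edgeR adjusted p = 0.244) on a few counts.

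Of the genes for ligands of these receptors, Tac1 and Penk had the highest levels in untreated myenteric libraries. Tac1, the precursor of substance P and neurokinin A, averaged 290 ± 285 CPM (SD, n = 6) in the untreated myenteric small intestine and 16.8 ± 9.71 CPM (n = 5) in the colon, a difference that did not pass the test (log2 fold change -4.12 ± 1.34, edgeR adjusted p = 0.0954). Penk, the enkephalin precursor, averaged 110 ± 100 and 74.1 ± 37 CPM in the same groups. Penk fell in the submucosal plexus against the myenteric plexus, with log2 fold changes of -2.03 ± 0.64 in the colon (edgeR adjusted p = 0.0277) and -3.42 ± 0.62 in the small intestine (0.000179). In these contrasts 21.8% and 43.5% of all genes were called. Of the 12 neuronal genes 8 and 11 fell, and their part in the Penk values was not tested. Pdyn and Tac2 were near 0 in untreated myenteric libraries. In injected mice the group means of Pdyn ran from 0 to 39.1 CPM, the highest in the LPS colon at 2 h (maximum 146 CPM). Pdyn, the dynorphin precursor, was at 0 in 3 of 6 untreated myenteric libraries of the small intestine (mean 1.19 CPM) and in all 5 of the colon, and so was Tac2 (mean 0.429 CPM). Pomc averaged 0.794 and 1.21 CPM in these groups, and Tac4 and Pnoc were at 0 in all 6 small-intestinal libraries. Neither Tac1 nor Penk passed the test of LPS or of genotype at 2 h or 24 h. Tac1 was the one of 3 tachykinin precursor genes that was tested in untreated mice, and Penk the one of 5 genes of opioid ligands and the nociceptin receptor.

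Of the endocannabinoid list, which holds 12 genes for enzymes, receptors and a receptor-binding protein, 3 enzymes fell with LPS in the wild-type colon at 24 h. Of the 11 genes tested none rose, and 7.96% of all genes were called in this contrast. The list had a median log2 fold change of -0.33 against -0.03 over all genes. This is the contrast in which the libraries of mice 3, 5 and 8 stood apart and the fibroblast sum was 281 to 8203 CPM against 10130 to 17660 CPM after PBS, and their part was not tested. Dagla, which makes 2-arachidonoylglycerol, fell by 2.59 ± 0.79 (edgeR adjusted p = 0.0394), from a mean of 29.6 to 4.93 CPM. Mgll, which breaks it down, fell by 1.80 ± 0.55 (edgeR adjusted p = 0.0394), and Naaa, which hydrolyses N-acylethanolamines, fell by 1.81 ± 0.52 (edgeR adjusted p = 0.0292). No gene of this list passed in the wild-type small intestine or in either region of the knockout. Among the 7 genes of Gq coupling, through which the tachykinin receptors signal, the inositol trisphosphate receptor Itpr1 fell with LPS in wild-type mice, with log2 fold changes of -3.36 ± 0.78 in the colon (edgeR adjusted p = 0.00757) and -3.87 ± 0.85 in the small intestine (edgeR adjusted p = 0.00354). This 1 of 7 genes per region stands against 7.96% and 7.17% of all genes called, and nothing particular to the list is read from it. Smooth-muscle genes had medians of -1.42 and -1.13 and Cajal-cell genes -2.60 and -0.40 in these contrasts, with none passing the test, and their part in the Itpr1 values was not tested. No gene of Gi/o coupling or of the ion channel and cyclase list passed a test of LPS or genotype.

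Between the plexuses of the colon, 4 of 12 tested genes of Gi/o coupling and desensitisation differed, where 21.8% of all genes were called. The counts of the other lists, 3 of 7, 3 of 12, 1 of 5 and 2 of 9, are read against the same share, and nothing particular to a list is read from them. Gnao1, the Go alpha subunit of neurons, fell by 2.24 ± 0.68 and the arrestin Arrb1 fell by 1.05 ± 0.27 in the submucosal plexus, and Arrb2 rose by 2.06 ± 0.41 (edgeR adjusted p = 0.0224, 0.00875 and 0.00174). Of 7 Gq genes Plcb4 fell by 2.45 ± 0.5 and Itpr1 fell by 2.13 ± 0.34, and Plcb3 rose by 1.17 ± 0.30 (edgeR adjusted p = 0.00188, 0.000292 and 0.00883). Of 12 endocannabinoid genes Faah, which degrades anandamide, rose by 3.33 ± 0.80, the lysophosphatidylinositol receptor Gpr55 rose by 4.67 ± 1.46, and Naaa fell by 0.73 ± 0.24 (edgeR adjusted p = 0.00565, 0.0261 and 0.0340). Of 5 channel and cyclase genes tested Adcy1 fell by 1.93 ± 0.57 (edgeR adjusted p = 0.0192). Of 9 peptide-processing genes Cpe, a carboxypeptidase of peptide precursors, fell by 3.27 ± 0.42 and Ace, which cleaves substance P among other peptides, rose by 1.95 ± 0.68 (edgeR adjusted p = 6.46e-05 and 0.0430). The lists' median log2 fold changes were 0.16, -0.70, -0.19, -1.93 and -0.26 for Gi/o, Gq, endocannabinoid, channel and cyclase, and peptide-processing genes, against -0.01 over all genes. The immune-marker sum of 169 to 7573 CPM in the submucosal colon against 121 to 481 CPM in the myenteric colon moved with the rises of Arrb2 and Gpr55, and its part was not tested.

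Genes whose pattern was most like that of a member were named by the Pearson correlation of log2 CPM over the 37 libraries at 24 h, among 13073 genes tested at 24 h and at 2 h, with the value over the 16 libraries at 2 h beside it. These values are descriptions, over libraries that share depth, region and treatment. For Cnr1 they were Sv2a (0.858, then 0.583 at 2 h), Fgf13 (0.853 and 0.953) and Dpp6 (0.841 and 0.905). Sv2a encodes a synaptic vesicle protein and Dpp6 a potassium channel subunit. For Oprk1 they were Ly6h (0.818 and 0.710), Svop (0.808 and 0.654) and Ret (0.802 and 0.681), the receptor tyrosine kinase that is also on the neuronal marker list. Tacr3 was most like Shisal1 (0.858 and 0.704), Lrrtm1 (0.851 and 0.397) and Csdc2 (0.839 and 0.036), of which only Shisal1 was above 0.5 at 2 h.

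The members at low level had weaker matches that were not held at 2 h. Oprd1 was nearest to Rec8 (0.698 and 0.386), Actn2 (0.641 and -0.239) and Ltk (0.597 and 0.342). Tacr1 was nearest to Fam184a (0.587 and 0.038), Myocd (0.556 and 0.276) and Hcn4 (0.554 and 0.117), and Tacr2 to Tafa2 (0.663 and -0.063), Prdm6 (0.5 and 0.254) and Tnrc6b (0.467 and -0.197). Among the members themselves Cnr1 and Oprk1 gave 0.602 at 24 h and 0.614 at 2 h. Tacr1 and Tacr2 gave 0.049 at 24 h, when most of their libraries were at or near 0, and 0.854 at 2 h. Cnr1 and Tacr3 gave 0.272 and 0.822.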

How the data were processed

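RNA-seq libraries of cells labelled as enteric glia were made with Smart-seq2, per the labels' protocols, which amplifies cDNA by PCR without molecular identifiers, so counting floors cover counting error only. The authors deposited raw counts per gene symbol in a table for the untreated and 2 h experiments and another for 24 h. The submitters' processing notes name Trim Galore 0.4.4, STAR 2.5.3, DESeq2 and GRCm38 without roles. The counter, its annotation and its use of strand are not given in the sources used here. Groups and mouse numbers came from the labels. Labels at 24 h give a mouse number per library, for 1 library (knockout, PBS, small intestine, mouse 7) only in its description. Elsewhere nothing states that replicates came from separate animals, and p-values then measure the spread between these samples.

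Each experiment was fitted with edgeR 4.0.16 in R 4.3.3 (filterByExpr, TMM, 1 quasi-likelihood model over all its groups, glmQLFTest, two-sided). Benjamini-Hochberg adjustment ran over the 14090, 13107 and 14903 genes tested (untreated, 2 h, 24 h), with a threshold of 0.05. The filter passed 4, 6 and 7 of the 7 members. The SE is the absolute log2 fold change divided by the square root of F. CPM are counts scaled to the TMM-adjusted library size. The fit was also run on simulated counts as a check of the code, and no result of that run is used here. Log2 CPM for correlations used a prior count of 2. Gene positions and exon lengths came from the GENCODE annotation of GRCm38, and upstream windows from RefSeq, which matched 6 of the 7 genes.

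The members, marker lists and pathway lists were chosen with earlier results of these data known. Named were all members, up to 3 called genes per pathway list and contrast by size of change, 3 neuronal markers by mean level, and the 3 most like genes per member. Alternatives were RLE size factors, DESeq2 1.42.0, no filter, the compared groups alone, sex as a covariate, the replicate block, mice numbered 11 and above, a covariate for mouse number, each library left out, and for correlations a prior count of 0.5 or deviations from group means. At 24 h the regions share mice by label (4, 4, 4 and 3 pairs), and the correlation of their deviations averaged 0.091 to 0.139 per comparison. Elsewhere the labels do not state whether equal numbers mark the same animal, and the p-values take these libraries as independent. The correlations cannot settle this, because pairs that share a mouse by label ran down to -0.044. Equal numbers in the regions of the untreated submucosal plexus averaged 0.184. Among the neuronal markers Stmn2, Prph and Tubb3 had the highest mean levels.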

Additional observations from a re-analysis of the deposited data

Results flagged for a closer look

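In groups of 4 to 6 libraries, the highest and the lowest library was compared with its nearest neighbour by Dixon's gap ratio at the 95% level, in the 79 combinations of gene and group whose median was above 0. A library stood apart from its group in 18 of the 79. The nominal rate of 1 group in 20 is for normally distributed values, and CPM near 0 are skewed, so no excess is read from this count. The flagged Oprm1 library of the untreated submucosal small intestine held 2 counts, under the floor of 3.

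Cnr1 stood apart in 4 colonic groups through its highest library, at 23.1 CPM (PBS at 2 h, female 1), 77.4 CPM (LPS at 2 h, female 1), 60.9 CPM (knockout PBS at 24 h, mouse 7) and 78.0 CPM (knockout LPS at 24 h, mouse 2). The neuronal-marker sum was the highest of its group in the last 3 of these and the second highest in the first.

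Oprk1 stood apart through its highest library in the wild-type LPS colon (39.5 CPM, mouse 8) and the knockout PBS colon (16.2 CPM, mouse 7), and through its lowest in the knockout LPS colon (0.0 CPM, mouse 21), all at 24 h. Mouse 7 of the knockout PBS colon was therefore the highest for Cnr1 and Oprk1 alike.

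Oprm1 stood apart through its highest library in the untreated myenteric small intestine (5.60 CPM, male 3), the untreated myenteric colon (1.74 CPM, male 1), the untreated submucosal small intestine (0.719 CPM, male 3), the wild-type PBS colon (2.06 CPM, mouse 14) and the knockout LPS colon (2.67 CPM, mouse 17). Oprd1 did so in wild-type LPS mice, in the small intestine (26.3 CPM, mouse 8) and in the colon (6.59 CPM, mouse 5).

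Tacr1 stood apart in the small intestine after PBS at 2 h (2.41 CPM, female 3) and in the knockout small intestine after LPS (7.51 CPM, mouse 10), and Tacr2 in the latter group through mouse 6 (4.82 CPM). Tacr3 did so in the wild-type PBS colon, at 61.5 CPM in mouse 14. Without that library the fall of Tacr3 with LPS was 2.18 ± 0.93 (SE) on the log2 scale, and its adjusted p by edgeR was 0.157.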

How the results depend on the processing

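The number of members called stayed within 1.5 times its value in every alternative for 14 of 24 contrasts. Of these 14, only the plexus contrast of the small intestine had calls, with 4 in place of 3 with no filter. In the rest no member was called in the main fit or in any alternative, so they show an absence of calls and not stability. Some alternatives also left members untested. For LPS at 24 h in the knockout colon, the compared groups alone tested 3 of 7 members. Calls of members in untreated contrasts are not given, since the members were chosen with these data in view. In injected mice DESeq2 raised the number from 0 to 1 for LPS at 2 h in the small intestine and for region after LPS at 2 h. It did the same for region after LPS at 24 h in the knockout, and raised it from 0 to 3 for region after PBS at 2 h. In a fit of the compared groups alone it was 1 for LPS at 24 h in the wild-type small intestine (Tacr3, adjusted p = 0.0418 by edgeR). The call of Tacr3 with LPS in the wild-type colon was lost (0 called) in 5 settings: groups alone (adjusted p = 0.310 by edgeR), mice 11 and above, the mouse-number covariate, no filter (0.0617) and sex (0.0529). It was kept with RLE size factors (0.0448) and DESeq2 (0.00777). Leaving out each library gave 0 to 1 for that contrast.

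The replicate block changed no number of members called. It reversed 1 member value, Cnr1 between regions in the knockout after PBS, from 0.16 to -2.79. That value was also reversed in mice 11 and above (-3.54), with the mouse-number covariate (-1.27), with sex (-0.48), and when libraries were left out (-3.47 to 0.60 over all). No other of the 35 member values reversed. The cause was not tested.

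Calls over all genes moved by more than 1.5 times in 62 of 160 alternatives. DESeq2 called 987 genes in place of 449 for region in the untreated myenteric plexus, 498 in place of 29 and 346 in place of 8 for region at 2 h after PBS and LPS, 260 in place of 144 for LPS at 2 h in the small intestine, and 2255 in place of 1186 and 1871 in place of 1069 for LPS at 24 h in the wild-type colon and small intestine. Fits of the compared groups alone called 412 for the wild-type colon and 1902 in place of 3069 for the plexuses of the colon. For LPS at 24 h in the knockout the 107 calls of each region became 47 to 527 (small intestine) and 7 to 474 (colon) across settings, and 46 to 352 and 28 to 191 with a library left out. For genotype after LPS in the colon the 64 calls became 0 to 719 across settings and 7 to 141 with a library left out, and LPS in the wild type with a library left out gave 551 to 1324 (colon) and 641 to 1057 (small intestine). Of 36 correlations recomputed, 6 moved by over 0.1 and none changed sign. Members under about 3 counts per library could not be resolved at this depth.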
